A study of Caenorhabditis elegans with 2 samples.

Results

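The pre-mRNA splicing protein genes described here are the protein-coding genes of Caenorhabditis elegans whose symbol starts with snr, snrp, prp, lsm, rsp, uaf or sftb followed by a number. The WBcel235 annotation holds 45 such genes among 19985 protein-coding genes. They fall into 7 Sm core genes (snr), 7 Sm-like genes (lsm), 5 genes of other snRNP proteins (snrp), 13 genes of PRP factors (prp), 3 genes of SF3b subunits (sftb), 2 genes of U2AF subunits (uaf) and 8 genes of SR proteins (rsp). They were set against chromatin immunoprecipitation sequencing (ChIP-seq) of the T-box transcription factor TBX-2 in whole L3 hermaphrodites, collected 48 h after synchronization as starved L1 larvae. Both biological replicates are of strain OP159, which carries the unc-119(ed3) allele and the transgene wgIs159, and in which TBX-2 has a GFP-FLAG tag at its C terminus. An antibody to GFP was used. There was 1 group, so conditions could not be compared, and the pull-down averages over all tissues of the animal.

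Introns are removed by the spliceosome, which is built from small nuclear RNAs (snRNAs) and proteins. Sm proteins form a ring on most spliceosomal snRNAs, and a related ring of Sm-like (LSM) proteins holds U6 snRNA. U2AF reads the end of the intron, SF3b holds U2 snRNA on the branch site, PRP factors build and remodel the complex, and SR proteins help choose splice sites. These genes are used in nearly all cells, whereas TBX-2 is best known for its role in pharyngeal muscle.

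The values are the signal values that the authors' peak caller gave to each peak, so they rank sites within a list and are not read counts. Read depth is unknown. The pooled list on build ce11 has 30000 ranked entries, peaks and background together, and the authors' list thresholded on the irreproducible discovery rate holds the strongest 1631 of them, with signal values of 91.0 and above. A gene was counted as having a peak when the summit of a thresholded entry lay from 1000 bp upstream to 200 bp downstream of one of its transcript starts, called its promoter window here.

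Of the 45 splicing protein genes, 9 had a thresholded summit in the promoter window, against 5.41% of all protein-coding genes. The share of the members was 20.0%, with an exact Clopper-Pearson 95% interval of 9.58 to 34.6% that covers the number of genes only, and the share of the other 19940 protein-coding genes was 5.38%. The 9 genes were snr-4, rsp-1, rsp-2, prp-40, snrp-40.1, snrp-3, sftb-1, lsm-6 and prp-19, and they rested on 8 distinct summits. Every family except uaf was among them, and none held more than 2.

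The letters under 4 of the strongest of these peaks are shown, since they are where a T-box element would be looked for. Each run is the reference sequence of WBcel235 (RefSeq), written 5′ to 3′ in the direction of the named gene, with the summit base in capitals. The window of snr-4 is chrV:11979977-11980177 on the minus strand, that of rsp-1 is chrII:11453121-11453321 on the plus strand, that of prp-40 is chrIII:9521808-9522008 on the plus strand and that of snrp-3 is chrIV:8687857-8688057 on the minus strand.
snr-4: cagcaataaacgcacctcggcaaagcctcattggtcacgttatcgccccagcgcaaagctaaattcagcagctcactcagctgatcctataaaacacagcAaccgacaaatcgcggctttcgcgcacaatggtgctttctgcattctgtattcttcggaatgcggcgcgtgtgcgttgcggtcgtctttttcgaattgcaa
rsp-1: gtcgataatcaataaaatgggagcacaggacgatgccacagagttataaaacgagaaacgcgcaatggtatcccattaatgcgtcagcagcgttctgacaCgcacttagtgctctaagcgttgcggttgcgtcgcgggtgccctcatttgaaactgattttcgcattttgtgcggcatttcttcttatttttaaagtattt
prp-40: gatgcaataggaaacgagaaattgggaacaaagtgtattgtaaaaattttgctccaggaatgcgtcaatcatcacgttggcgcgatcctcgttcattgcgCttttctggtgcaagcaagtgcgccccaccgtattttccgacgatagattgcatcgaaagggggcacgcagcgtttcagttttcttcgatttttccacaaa
snrp-3: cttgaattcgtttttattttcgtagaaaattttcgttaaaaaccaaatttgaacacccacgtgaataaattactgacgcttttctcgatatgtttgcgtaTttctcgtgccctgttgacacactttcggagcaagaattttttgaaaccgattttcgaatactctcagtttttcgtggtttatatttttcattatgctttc

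The T-box core GGTGTG was absent, on either strand, from these 4 windows, which reach 100 bp to each side of the summit, and from those of all 8 member summits. It was present in 7.48% of all 1631 thresholded summit windows, so its absence from 8 windows is a description of these letters alone. GAGAGA was also in 0 of the 8 windows, against 41.6% of all thresholded windows. The E-box CACGTG was in 1 of the 8 windows, that of snrp-3, against 7.66% of all. ATTGG, the reverse complement of CCAAT, was in 2 of the 8, those of snr-4 and prp-40, against 29.2% of all. The GC box GGCGGG was in the window of prp-19 alone, against 11.1% of all. The letters TTTCAG and TCATTT were each in 3 of the 8 windows, against 14.4% and 25.8%, and TGATAA was in 0, against 10.2%.

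The strongest member was snr-4, which encodes the Sm protein SmD2. Its peak at V 11979949 to 11980163 reached a pooled signal of 226, with 114 in replicate 1 and 119 in replicate 2, and its summit lay 354 bp upstream of the transcript start. Its pooled rank was 346, and its ranks were 409 in replicate 1 and 272 in replicate 2. The summit lay in an exon of C52E4.14, a non-coding RNA gene, and 41 bp from the start of T11F9.15, an annotated snRNA gene, so the nearest start of any gene was not that of snr-4. Whether the signal belongs to the snRNA gene or to snr-4 cannot be told apart from the position of the summit.

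The other Sm genes reached lower values, and 3 of them lay just under the ce11 threshold. The pooled signal values were 88.0 for snr-3 (SmD1), 82.0 for snr-1 (SmD3) and 78.0 for snr-6 (SmE). For snr-3 the replicates gave 38.1 and 47.2, for snr-1 they gave 34.3 and 45.9, and for snr-6 they gave 42.1 and 36.0. The remaining Sm genes, snr-2 (SmB), snr-5 (SmF) and snr-7 (SmG), had values from 26.3 to 30.8. The best entries of all protein-coding genes with one had a median of 33.8. All 7 Sm genes had some entry in the pooled list, with values from 26.3 to 226 and a median of 78.0. These are values of sites and not of single genes. The summit at snr-4 lay by an snRNA gene, that at snr-3 was shared with rsp-5, and that at snr-1 was nearest to the start of snx-13.

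Of the Sm-like genes, lsm-6 alone had a thresholded summit. Its peak at I 1701082 to 1701501 reached a pooled signal of 105, with 61.6 in replicate 1 and 45.9 in replicate 2, with the pooled summit 69 bp upstream. The pooled value of lsm-3 was 90.3, just under the lowest thresholded value, with 58.1 in replicate 1 and 32.1 in replicate 2, and its summit lay 970 bp upstream of lsm-3 and 91 bp from the start of Y62E10A.23. The entry of lsm-7 had a pooled value of 77.9, with 50.8 in replicate 1 and 27.2 in replicate 2, and its nearest start was that of dnc-1, 91 bp away. The genes lsm-5, lsm-8 and lsm-4 had pooled ranks of 6973, 16977 and 20586. No entry of any list lay in the window of lsm-1, whose product replaces LSM8 in the cytoplasmic ring that acts in mRNA decay.

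Both thresholded snrp genes had their summit close to the transcript start. At snrp-40.1, a homologue of the human U5 snRNP protein SNRNP40, the peak at X 11299548 to 11299967 reached a pooled signal of 151, with 73.2 in replicate 1 and 77.9 in replicate 2. Its summit lay 26 bp downstream of the start, in the annotated 5′ untranslated exon, and it was the only thresholded summit of the 9 genes that was not upstream. The related gene snrp-40.2 had no entry in any list. At snrp-3 the peak at IV 8687747 to 8688166 reached 139 pooled, with 86.3 in replicate 1 and 49.2 in replicate 2, with the summit 147 bp upstream. The helicase gene snrp-200, the homologue of yeast Brr2, had 31.6 and snrp-27 had 22.2.

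**Figure D1:**
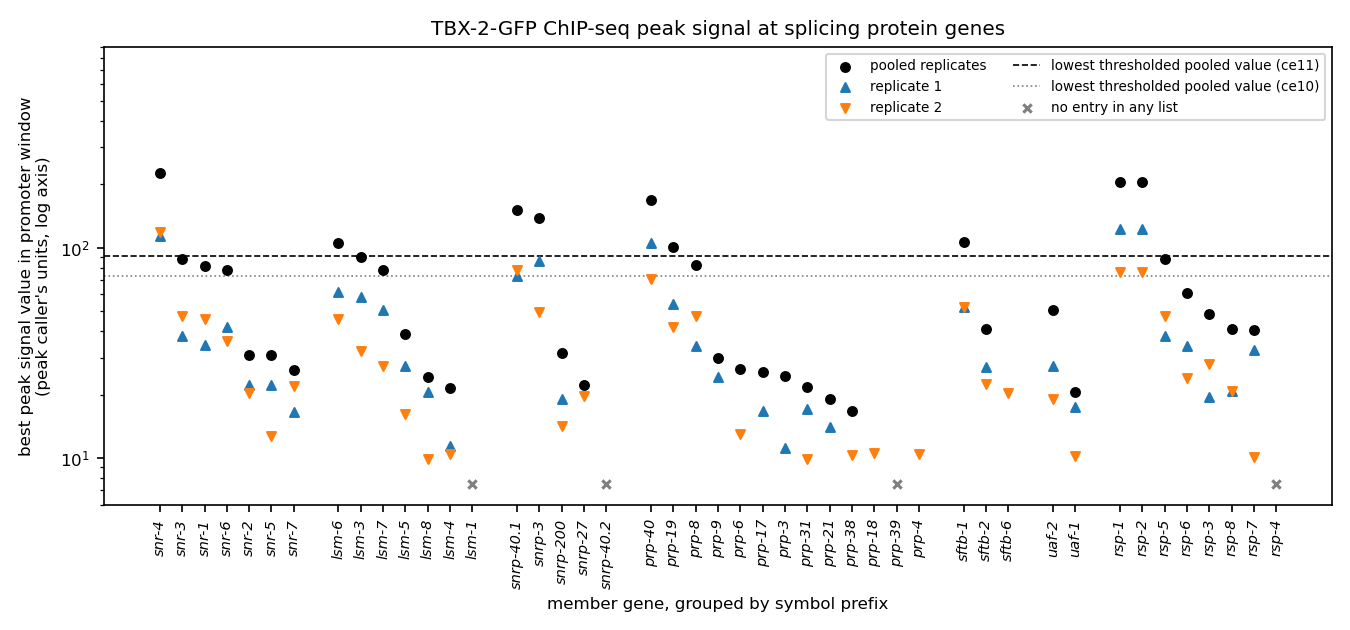
Each column is 1 of the 45 genes, with the best signal value in its promoter window on a log axis for the pooled replicates (circles), replicate 1 (upward triangles) and replicate 2 (downward triangles). The dashed and dotted lines mark the lowest thresholded value on ce11 (91.0) and ce10 (73.0), and crosses mark the 4 genes with no entry in any list. Within every family except uaf the pooled values span both sides of the dashed line.

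The PRP family was the largest and had mostly weak entries. At prp-40, whose yeast homologue is a U1 snRNP protein, the peak at III 9521698 to 9522117 reached a pooled signal of 168, with 105 in replicate 1 and 70.6 in replicate 2, and its summit lay 167 bp upstream. At prp-19, which encodes a ubiquitin ligase of the spliceosome, the peak at III 5172469 to 5172888 reached 100.2 pooled, with 53.6 in replicate 1 and 42.2 in replicate 2. That summit was 634 bp upstream of prp-19 and 41 bp from the start of K10D2.5, and it ranked 1821 in replicate 2, below the 1631 highest. The entry of prp-8, which encodes the central U5 protein, stayed under the ce11 threshold with 82.9 pooled, 34.1 in replicate 1 and 47.5 in replicate 2.

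Further PRP genes had pooled values around or below the median of 26.0 of the list. Pooled values of prp-9, prp-6, prp-17, prp-3, prp-31, prp-21 and prp-38 ran from 16.8 to 29.7, with prp-9 and prp-6 above that median and prp-38 nearest to the lowest value of the list, 15.9. The genes prp-18 and prp-4 had an entry in replicate 2 alone, with 10.5 and 10.4, and prp-39 had none. Over the 10 PRP genes with a pooled entry the median signal of the best entry was 26.0. Over all 7190 protein-coding genes with a pooled entry it was 33.8. The median of the whole list covers every entry, background included.

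Of the genes for U2AF and SF3b subunits, only sftb-1 had a thresholded summit. It encodes the SF3b subunit homologous to human SF3B1. Its peak at III 4269500 to 4269919 reached a pooled signal of 107, with 52.2 in each replicate. The summit lay 440 bp upstream of sftb-1 but 33 bp from the start of R10E4.1. For sftb-2 the pooled value was 41.1, and sftb-6 had an entry in replicate 2 alone, with 20.3. The U2AF genes had no thresholded summit, with pooled values of 50.3 for uaf-2, the small subunit, and 20.6 for uaf-1, the large subunit.

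Among the SR protein genes, rsp-1 and rsp-2 shared a single summit. They are divergent neighbours, and the peak at II 11453131 to 11453285 lay 141 bp upstream of rsp-1 and 266 bp upstream of rsp-2. Its pooled signal was 204, with 123 in replicate 1 and 76.5 in replicate 2. A second shared site joined an SR protein gene to an Sm gene: the entry at II 6489753 to 6490172 had its summit 202 bp upstream of both rsp-5 and snr-3. The values given above for snr-3 are therefore those of rsp-5 too, and they count as 1 site.

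The pooled values of the other SR protein genes were 61.1 for rsp-6, with 34.0 and 24.0 in the replicates, 48.2 for rsp-3, 40.8 for rsp-8 and 40.7 for rsp-7. The product of rsp-3 is the homologue of human SRSF1. Among rsp-6, rsp-3, rsp-8 and rsp-7 the replicates differed most at rsp-7, with 32.6 in replicate 1 and 10.0 in replicate 2. No entry lay in the promoter window of rsp-4, although a thresholded summit was inside a window extended to 2000 bp upstream.

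Most of the thresholded genes also ranked high in each replicate. Among the 1631 highest entries of replicate 1 were 10 members, against 5.24% of all protein-coding genes, and among those of replicate 2 were 12 members, against 5.13%. In both replicates at once there were 8 members, against 4.12% of all genes, and these were the thresholded genes other than prp-19. Replicate 2 added prp-8, rsp-5, snr-1 and snr-3, and replicate 1 added lsm-3. Since the thresholded list was made from a pool of both replicates, its presence in each is not independent evidence. Spearman rho between the signal of replicate 1 and that of replicate 2 was 0.859 over the 31 members found in both lists, and 0.728 over 5244 protein-coding genes. These correlations are across genes, some of which share a summit.

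**Figure D2:**
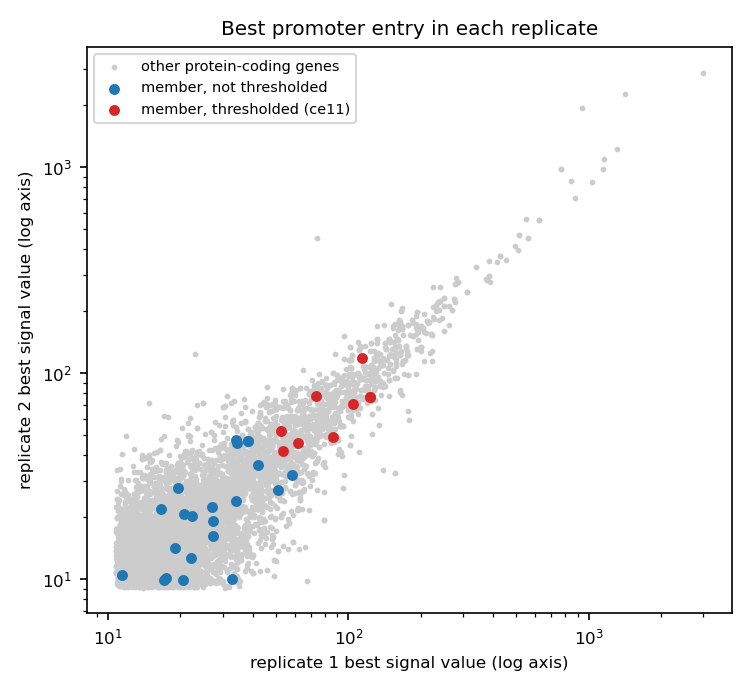
Each point is a gene with an entry in both replicates, placed by its best signal value in replicate 1 and in replicate 2 on log axes, with other protein-coding genes in grey, thresholded members in red and other members in blue. The thresholded members lie between 52.2 and 123 in replicate 1 and between 42.2 and 119 in replicate 2, well below the highest values of other genes.

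A large group of members sat just below the ce11 threshold, and the authors' ce10 list is longer. On ce10 the thresholded list holds 2343 entries down to a signal value of 73.0. The pooled ce11 list also has 2343 entries at or above that value. The ce10 list is thus a longer cut of the same ranking and not independent evidence. Its entries were matched to pooled ce11 entries by chromosome, width, summit offset and signal value, without using coordinates, and 2286 of 2343 had a unique partner. By that match 16 of 45 members had a peak that passed on ce10, against 7.10% of all protein-coding genes. The 7 added to the 9 were lsm-3, lsm-7, prp-8, rsp-5, snr-1, snr-3 and snr-6, on 6 distinct summits. The Sm family then counted 4 of 7 genes and the Sm-like family 3 of 7. Within the 3262 highest pooled entries there were 17 members, the last being rsp-6, against 9.24% of all genes.

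Weak entries were common at the members too. Some entry of the pooled list lay in the promoter window of 38 of 45 members, against 36.0% of all protein-coding genes. For replicate 1 this was 35 members against 36.1%, and for replicate 2 it was 37 members against 37.0%. The median rank of the best pooled entry was 5462 over the 38 members with one, and 9236 over the 7152 other genes with one. With the 7 members lacking an entry placed last, the median over all 45 was 6973, while most protein-coding genes had no entry at all. These lists include background, so an entry without a threshold is not a peak.

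Best summits lay mostly upstream of the start. The promoter window reaches 1000 bp upstream and 200 bp downstream, so most positions in it are upstream in any case. Of the 38 members with a pooled entry, 34 (89.5%) had the summit upstream, near the 83.8% of all protein-coding genes with an entry. The summit position had a median of 224 bp upstream over the 38, against 254 bp over those genes. The 8 thresholded genes with an upstream summit ranged from 69 to 634 bp upstream.

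**Figure D3:**
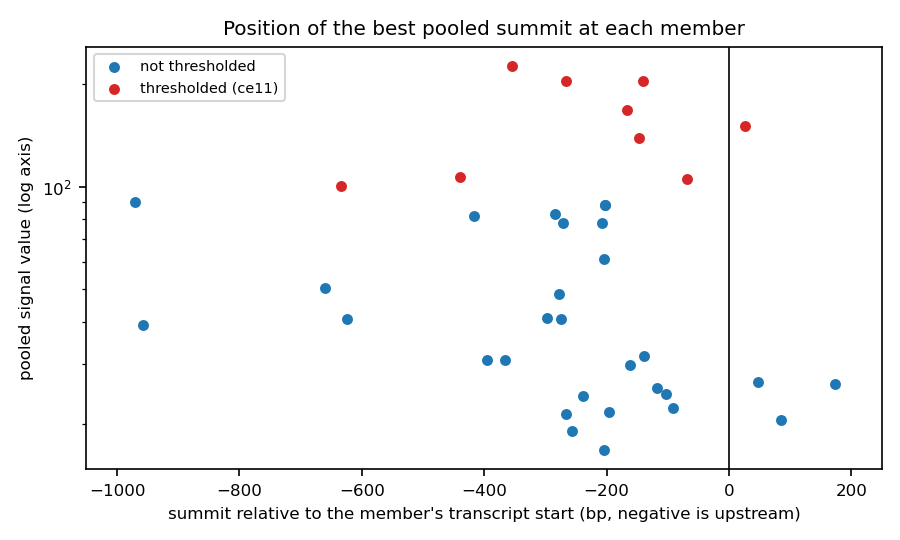
Each point is 1 of the 38 members with a pooled entry, placed by the position of the best summit relative to the member's transcript start in bp and by its pooled signal value on a log axis, in red where thresholded on ce11. Of the 38 points 34 lie upstream of the start, in a window that reaches 1000 bp upstream and 200 bp downstream. The summits 957 and 970 bp upstream are those of lsm-5 and lsm-3.

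Many of these summits are shared. The best pooled summit of 27 of the 38 members also lay in the promoter window of another coding gene, against 27.9% of the 7190 protein-coding genes with an entry. For 24 of the 38 the member's own start was the nearest coding start, or tied for it, which is 63.2% against 83.0% of the 7190 genes. Among the 9 thresholded genes the summits of prp-19, sftb-1 and rsp-2 were nearer to another coding start, and 6 (13.3% of the members) remained when each summit was given to its nearest coding start alone, against 4.07% of other protein-coding genes. Of those 6, rsp-1, prp-40, lsm-6 and snrp-40.1 still shared their summit with rsp-2, clu-1, Y71G12B.13 and F08G12.3. The summit of snr-4 lay nearer to an snRNA start. Only snrp-3 had an unshared summit with its own start the nearest of any gene.

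In worm operons, genes closely spaced on 1 strand are transcribed together from 1 promoter. Of the 45 members, 14 (31.1%) had a same-strand coding gene ending within 1000 bp upstream, a share near the 31.6% of other protein-coding genes. Of these 14, 3 had a thresholded summit at their own start (snr-4, lsm-6 and snrp-3), against 4.14% of all protein-coding genes with a close upstream neighbour. Walking upstream through such gaps to the leading gene of each run gave a thresholded summit at the leading gene for 6 of 14 members, against 8.78% of all protein-coding genes with a close upstream neighbour. Only lsm-6 had both.

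The leading genes with a peak can be named. They were Y73B6BL.29 for lsm-8 with a pooled signal of 241, hmgs-1 for prp-39 with 188, ubc-3 for lsm-6 with 178, plrg-1 for prp-38 with 162, suco-1 for snrp-40.2 with 123 and smrd-1 for prp-3 with 92.4. The gaps to the next gene upstream were 90 bp for prp-39, 106 bp for prp-38 and 111 bp for snrp-40.2. That next gene was the leading gene for prp-39 and prp-38 but not for snrp-40.2. The run from snrp-40.2 to suco-1 held 5 genes, and that from lsm-8 to Y73B6BL.29 held 3. Thus prp-39 and snrp-40.2, which had no entry of their own, lay downstream of genes with a peak. This did not hold for rsp-4 and lsm-1, which also had no entry in any list. The leading gene for rsp-4, fbxl-3, reached only 47.5 pooled, and lsm-1 had no close upstream neighbour. The runs are defined by spacing alone, and whether they are transcribed as operons was not tested.

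Other genes of splicing were counted in the same way. In a list of 48 further core spliceosome and snRNP assembly genes, 7 (14.6%) had a thresholded summit, against 5.41% of all protein-coding genes. The strongest were mog-4, a DEAH helicase gene, with a pooled value of 353, smu-1 with 281, rsr-1 with 273, syf-2 with 164, plrg-1 with 162 and ddx-23 with 109. In a list of 28 splicing regulators and hnRNP-type genes, 10 (35.7%) had one, against the same 5.41%. They were led by rbm-25 at pooled rank 439, spk-1, an SR protein kinase gene, at rank 546, hrpu-1 at 909, rbm-39 at 1286, hrpk-1 at 1342 and swp-1 at 1350. With replicate 1 alone that second count was 5, against 5.24% of all genes, and with replicate 2 alone it was 8, against 5.13%. In both replicates at once it was 3 of 28 (10.7%), against 4.12%. As other broadly used gene groups, 44 of 78 cytoplasmic ribosomal protein genes (56.4%) and 4 of 33 proteasome subunit genes (12.1%) had a thresholded summit, again against 5.41%. The exact 95% intervals were 9.58 to 34.6% for the members, 3.40 to 28.2% for the proteasome genes and 44.7 to 67.6% for the ribosomal protein genes. They cover the number of genes only and treat genes as independent, although some share a summit. Differences between the groups were not tested, since the genes of a group are not replicates.

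**Figure D4:**
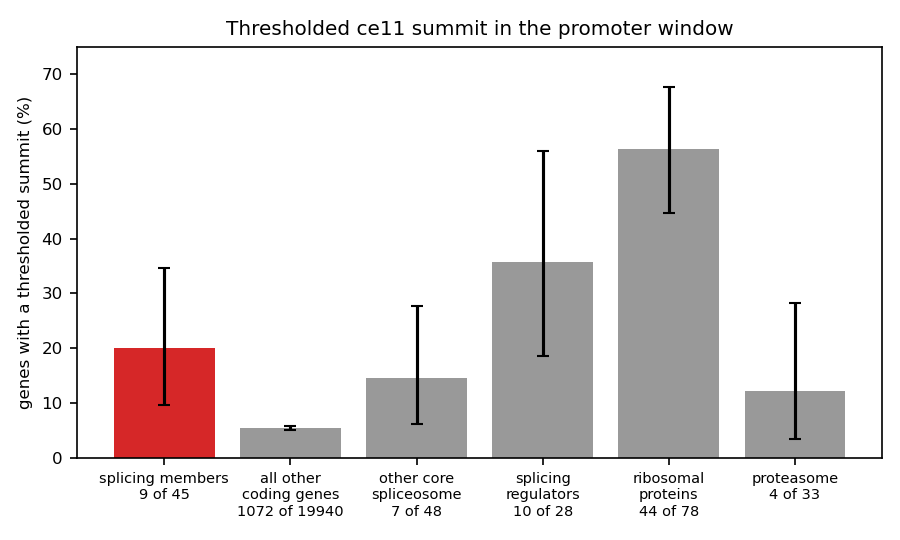
Bars give the percentage of genes with a thresholded ce11 summit in the promoter window for the 45 members (red) and for the compared gene groups (grey), with exact 95% intervals that cover the number of genes only. The members, at 20.0%, stand between the other protein-coding genes at 5.38% and the ribosomal protein genes at 56.4%.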

How the data were processed

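Anti-GFP ChIP-seq peak lists of 2 biological replicates were used. Per the names of the deposited files, the authors ranked peaks together with background in each replicate and in both pooled, and deposited a list made from those and thresholded on the irreproducible discovery rate, on builds ce11 and ce10. The signal value of each peak is the authors' peak caller's own. Aligner, peak caller and settings: not given in the sources used here. A control experiment is named as possible in the labels and its data were not analysed here.

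Coordinates are those of ce11, used with the WBcel235 assembly and Ensembl release 115, and 0 entries extended past a chromosome end. Ranks follow the signal value. For each gene the strongest entry with its summit in the promoter window of any transcript start was taken, so the entry can differ between lists. Entries of ce10 and ce11 were paired where chromosome, width and summit offset were equal and signal values differed by at most 0.001%. Motifs were searched on both strands within 100 bp of summits. They were the T-box core GGTGTG, the GA repeat, the E-box, the CCAAT box, the GC box GGCGGG, the GATA site TGATAA, the intron end TTTCAG and, with no factor named for it, TCATTT. The assignment of summits was tested on simulated data. Python 3.11.15, pandas 2.3.3 and scipy 1.17.1 were used.

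No test between groups was made. Members and gene lists were chosen with earlier results of these data known. Named were all members, up to 6 genes of each further splicing list, and non-members that share or lie nearest to a member's summit or lead its run; the last of these were chosen after their values were seen. The symbols gemi-1 and tiar-3 were not matched. Sequences were those of up to 6 of the strongest members, without stretches of untranslated exons.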

Additional observations from a re-analysis of the deposited data

How the results depend on the processing

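The count of 9 members kept within 1.5 times under other promoter windows, with the outermost start of each gene, by interval overlap, for autosomal genes and with summits given to the nearest start, where it ranged from 6 to 10. The share of other genes in these settings ran from 4.07 to 7.25%. The count was 5 among the 815 strongest thresholded peaks, against 2.95% of other genes. It was 16 with as many pooled entries as the ce10 list holds, against 7.15% of other genes. With the entries matched to ce10, added after seeing the data, it was 16 too, against 7.03%. Both settings cut the same pooled ranking at nearly the same place and added the same genes, so they are not separate results. From 1 replicate it was 10 to 12, against 5.08 to 5.2% of other genes. Among those 815, 2 splicing regulators, 21 ribosomal protein genes and 2 proteasome genes had a peak, against the same 2.95%. So did 1 member with a close upstream neighbour, against 2.13% of other genes with one. With summits given to the nearest start, 6 regulators and 28 ribosomal protein genes had a peak, against 4.07% of other genes. Among genes without a close upstream neighbour, 4 of 24 core spliceosome genes and 6 of 20 regulators did, against 5.96%. Proteasome genes reached 7 under both longer ce10-type lists, against 7.15 and 7.03% of other genes. Regulators had 5 to 8 from 1 replicate, against 5.08 to 5.2%. The median rank of the members was 7369 with a window of 500 bp on either side, against 9854.5 for other genes with an entry. With 500 bp upstream and 200 bp downstream it was 7157, against 9301.5. With 2000 bp upstream and 200 bp downstream it was 3685.5, against 8588. The median summit position of thresholded members, -167 bp from the start, was -232.5 to -202 bp from 1 replicate. GGTGTG was in 0 member windows at each width tried. No paired analysis was possible because there is 1 group. Depth is unknown, so no limit of detection can be given.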

Other observations

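In the stretch from 250 bp before to 50 bp after the outermost start of each gene, the letters TTTCAG, which match the end of a typical worm intron, were in 36 of 45 members and in 51.7% of 19973 nuclear protein-coding genes, on either strand. They were in 6 of the 9 members with a thresholded summit. The T-box core GGTGTG was in 2 of 45 members in the same stretch, against 7.60% of the genes. ATTGG was in 15 of 45, against 45.5%. These are counts of letters, and what they mean for TBX-2 was not tested.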
